A study of Mus musculus with 12 samples.

Results

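The cytosolic ribosomal protein genes were followed through the liver of newborn mice. They were taken by symbol: every feature named Rps or Rpl followed by a digit, together with Rplp0, Rplp1, Rplp2 and Rpsa, and without pseudogenes or the S6 kinase (Rps6k) genes. This gave 86 members among 32285 features. The members hold the subunits' structural proteins, their like-named copies (such as Rps27l beside Rps27) and Rps19bp1, which binds the Rps19 protein and is not itself part of the ribosome. Fau and Rack1, which also make ribosomal proteins, have other names and are described apart from the members.

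The study asked how phlebotomy-induced anemia (PIA) alters the cells of the neonatal liver. Pups of the C57BL/6 strain (genotype label C57BL6/J) in the PIA group (n = 6) were bled from the facial vein every 2 days from postnatal day (P) 2 to P10, at 20 µL blood per g each time, and naive control littermates (n = 6) received a needle stick that drew no blood. Livers were taken at P11, per the labels, and the whole dissociated liver of each mouse gave 1 droplet library, so the mouse is the replicate. No engineered allele is named for either group, and every library has the same batch label.

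A ribosome is built from a small subunit with the Rps proteins and a large subunit with the Rpl proteins, around ribosomal RNA, and each protein is needed in about equal numbers. Most of these mRNAs begin with a C and a run of pyrimidines, the terminal oligopyrimidine (TOP) motif, through which growth signals switch their translation on and off together. In red cell development, ribosomal protein mRNAs are plentiful in early erythroblasts and are lost as the reticulocyte fills with globin mRNA. Inherited loss of a single copy of RPS19 or of several other members causes Diamond-Blackfan anemia, a failure of red cell production in infants.

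The annotated starts of the members on which the results turn are given first, to show which of them hold a pyrimidine run near the start. Each line is the 10 bases before and the 20 bases from the annotated RefSeq start (GRCm38.p6), 5′ to 3′ on the gene's strand, with the run of a C followed by at least 5 bases that are each C or T in capitals. The search was made on the gene's own strand only. The capitals mark such a run anywhere in the 30 bases and are not by themselves a TOP motif, which begins at the first transcribed base: that of Rps27l lies wholly before the annotated start, and those of Rps2 and Rps12 begin at bases 5 and 9 after it.
Rps2, changed in hepatocyte-like and endothelial-like cells (chr17:24720053-24720082, + strand): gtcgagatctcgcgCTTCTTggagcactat
Rpl7a, changed in hepatocyte-like cells (chr2:26910797-26910826, + strand): CTCTTCTTTCTTTCTCCagcagccgagcaa
Rps6, changed in endothelial-like cells (chr4:86857348-86857377, − strand): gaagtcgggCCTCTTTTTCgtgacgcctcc
Rps12, changed in immature neutrophil-like cells (chr10:23787190-23787219, − strand): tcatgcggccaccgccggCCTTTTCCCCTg
Rpl41, changed in reticulocyte-like cells (chr10:128549149-128549178, − strand): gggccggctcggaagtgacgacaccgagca
Rps27, lower relative to the other members (chr3:90213629-90213658, − strand): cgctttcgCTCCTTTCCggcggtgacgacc
Rps27rt, its near-identical copy (chr9:114982720-114982749, − strand): ttatcccttgCTTTCCggcggtgacgacct
Rps27l, its like-named relative, prominent in hepatocyte-like cells (chr9:66946076-66946105, + strand): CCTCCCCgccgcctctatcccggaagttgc
Rpl36al, likewise prominent in hepatocyte-like cells (chr12:69184048-69184077, − strand): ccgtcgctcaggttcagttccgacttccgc
Of the 66 members with a window, 34 (51.5%) held such a run, against 22.0% of the windows of all 27025 genes in the same table. Runs of 8 or more bases stood in 31.8% of the members and in 8.63% of all genes. Rpl36al and Rpl41 had no run in these 30 bases. The annotated start decides what a window shows: that of Rps2 lies inside the longer gene annotated by GENCODE at 17:24718116-24721929.

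After filtering, 206146 cells (98075 control, 108071 anemia) with 730582523 unique molecular identifiers (UMIs, each a captured transcript counted once) were kept, and each library held between 45751640 and 74344118 UMIs. Cells were clustered without any ribosomal protein gene, and clusters were called X-like from marker genes. A cluster stayed unnamed where its markers were unclear, its leading genes spoke against the name, or it was shallow with no marker among them. Clusters 19 and 20 (3383 and 3320 cells) scored highest for hepatocyte but were shallow and stayed unnamed, with member shares of 7.26% and 4.78%. Of the cells in cluster 19, 73.0% came from anemic mice. The 17 classes with at least 20 cells in every mouse were tested. The 31 clusters left unnamed held 16.0% of control and 15.5% of anemic cells, with member shares of 7.84% ± 0.581 (SD, n = 6) and 8.13% ± 1.04 (SD, n = 6). The library of anemia mouse 2 stood apart from the others, giving the highest member share of the anemic mice in 8 of the 17 classes and the lowest in 3, monocyte-like cells among them, so values without it are given where a call rests on it. In all, 10068 kept cells carried a barcode sequence seen in more than 1 library. Nothing in the labels names litters, and p-values measure the spread between these 12 mice.

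Over all cells the share of UMIs from the members was 7.92% ± 0.388 in control and 7.82% ± 0.873 in anemic liver (SD, n = 6 each, exact permutation test, two-sided, p = 0.820). Behind this near-equal total, the share ran over a wide range between the tested cell classes. Granulocyte progenitor-like cells held the highest mean share of the 17 tested classes over the 12 mice, 15.09%. T-like cells followed with 14.04% and erythroblast-like cells, the nucleated red cell precursors, with 12.86%. The leading genes of the single granulocyte progenitor-like cluster were granule enzymes of early neutrophils (Elane, Mpo and Prtn3) and also Mcpt4, Cma1, Tpsb2 and Cpa3. Cpa3 is among the basophil or mast markers, for which the cluster scored 2.39 beside 5.9 for its own, so the class may be mixed. At the other end, reticulocyte-like cells, which hold mostly globin mRNA, had 0.564%, mature neutrophil-like cells 1.76% and immature neutrophil-like cells 3.05%. Hepatocyte-like cells were next above them with 4.71%.

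Neighbours in this order were compared within mice by an exact sign-flip permutation test over the 12 mice, two-sided, with Benjamini-Hochberg adjustment over the 16 pairs. The lower steps were wide: endothelial-like over hepatocyte-like cells by 2.34 percentage points, hepatocyte-like over immature neutrophil-like by 1.66, immature over mature neutrophil-like by 1.29 and mature neutrophil-like over reticulocyte-like by 1.20, each in 12 of 12 mice with adjusted p = 0.00195 in the exact test. Shares of summed UMIs give more weight to cells with more UMIs. The median cell had 1.46% in immature and 1.42% in mature neutrophil-like cells. Split at the median UMI count, the immature class had 3.52% in its deeper and 1.33% in its shallower cells. In the middle of the order the steps lay within the spread between mice. From B-like (8.90%) down to endothelial-like cells (7.05%), the 6 steps through macrophage-like, plasmacytoid dendritic-like, basophil or mast-like, cholangiocyte-like and monocyte-like cells were between 0.0559 and 0.413 points and none passed the exact test (adjusted p from 0.207 to 0.811). Pre-B-like cells (9.89%) held more than the more mature B-like cells by 0.985 points in 11 of 12 mice (adjusted exact p = 0.00313). That order holds for summed UMIs only, since the median cell had 6.05% in pre-B-like and 6.95% in B-like cells. At the top, granulocyte progenitor-like cells exceeded T-like cells in 10 of 12 mice (1.06 points, adjusted exact p = 0.0190), which in turn exceeded erythroblast-like cells in 9 of 12 (1.18 points, adjusted exact p = 0.0195). These top ranks are also those of summed UMIs. The median cell had 13.5% in granulocyte progenitor-like, 13.6% in T-like and 3.25% in erythroblast-like cells, the last below the 4.45% of hepatocyte-like cells. Some of the steps between neighbours rest on the denominator: without globin, mitochondrial and liver secretory UMIs, mature neutrophil-like cells lay below reticulocyte-like cells (−2.74 points) and T-like below erythroblast-like cells (−0.726 points, adjusted exact p = 0.180), and granulocyte progenitor-like over T-like cells was 0.747 points (adjusted exact p = 0.0557).

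**Figure D1:**
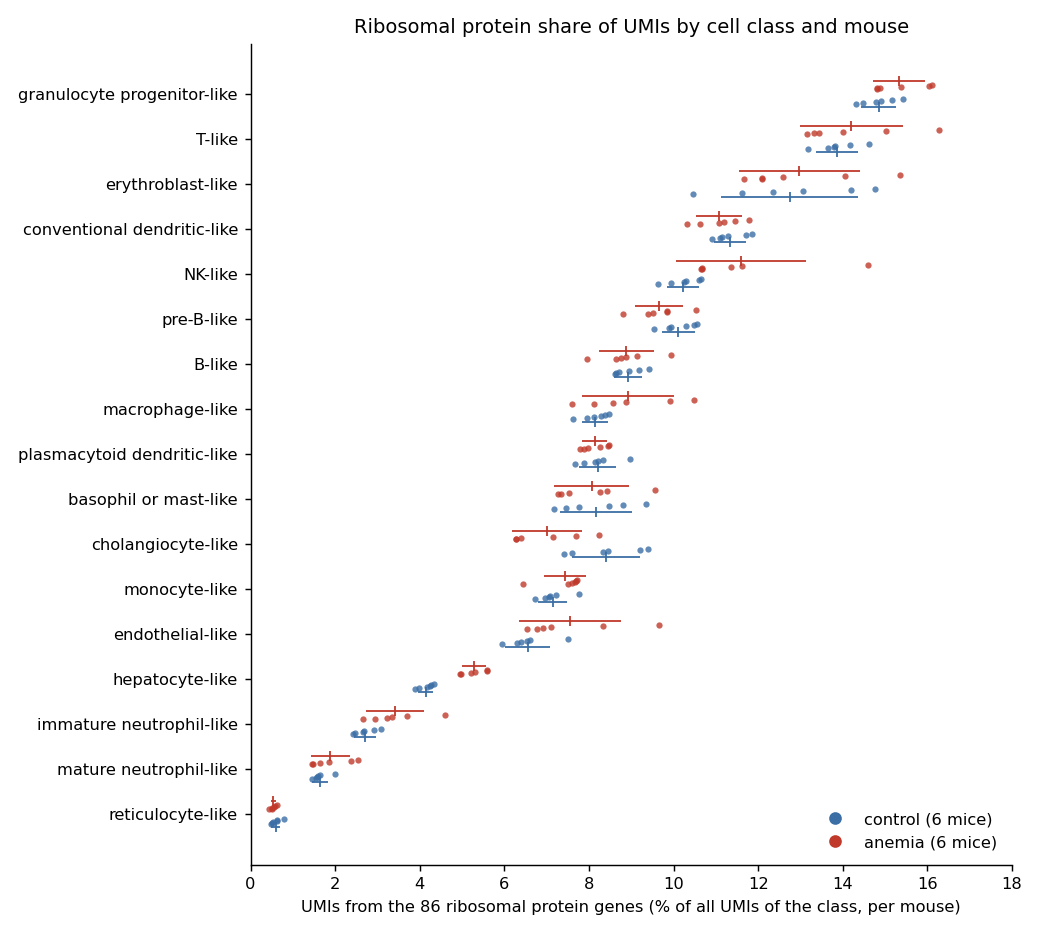
UMIs from the 86 ribosomal protein genes as a percent of all UMIs of a cell class (x axis), for 17 classes (y axis), with a point per mouse and a bar for mean ± SD of 6 control (blue) and 6 anemic (red) mice. The tested classes run from 15.09% in granulocyte progenitor-like to 0.564% in reticulocyte-like cells, and only in hepatocyte-like and NK-like cells do the blue and red points not overlap.

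In the erythroid classes the share was lower in those with markers of later stages. The 325 early erythroid-like cells, too few for a test, had 21.8% ± 1.56 in the controls and 22.0% ± 0.655 in the anemic group (SD, 6 mice each). Single erythroblast-like cells were far from alike: the median cell had 3.25% and the middle 50% of cells lay between 1.16% and 9.68%. The deeper cells of this class, split at the median UMI count, held 14.3% and the shallower 2.53%. For comparison, the split gave 11.3% and 9.27% in NK-like, 11.2% and 5.60% in pre-B-like and 4.41% and 5.41% in hepatocyte-like cells. The deeper cells thus had the higher share in the first 3 of these classes and the lower in the last, and the part of depth in the differences between classes was not tested.

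Anemia was compared with control in each class by an exact permutation test of the mean share over the 924 assignments of 6 of the 12 mice, two-sided, with adjustment over the 17 classes. The smallest p this allows is 0.00216. The member share was higher in anemic mice in hepatocyte-like and NK-like cells and did not pass the test in the other 15 classes.

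In hepatocyte-like cells (10023 cells), which make most plasma proteins, the control mice had shares of 3.89% at the lowest, 4.20% at the median and 4.34% at the highest, and the anemic mice 4.95%, 5.26% and 5.59%. Every anemic mouse lay above every control mouse. The means were 4.15% ± 0.178 and 5.27% ± 0.284 (SD, n = 6 each), a ratio of 1.27 (exact permutation p = 0.00216, adjusted 0.0184). With cells of at most 10% mitochondrial UMIs the difference fell from 1.13 to 0.561 percentage points and missed the adjusted exact test (p = 0.0859). Other contents of the class moved as well: mitochondrial UMIs fell from 10.1% to 5.01%, those of 8 liver secretory transcripts such as Alb and Apoa1 went from 14.0% to 11.2%, and those of globins from 0.211% to 0.980%.

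The hepatocyte-like class was made of 3 clusters with at least 20 cells in every mouse, and within each of them the groups overlapped. Cluster 13, led by Apcs, Rbp4 and Ttr, had 4.79% in control and 4.92% in anemic mice (exact permutation p = 0.303). Cluster 26, led by Gnmt, Ass1 and Hpd, genes of amino acid and methyl metabolism, had 8.11% and 7.90% (exact p = 0.470), and cluster 27, led by Apob and Cps1, 3.13% and 3.12% (exact p = 0.955). What differed was the makeup of the class. The cluster with the high member share, 26, held 9.74% to 20.3% of the class in control and 22.5% to 42.2% in anemic mice, and the cluster with the low share, 27, held 30.3% to 40.1% and 11.9% to 18.9%. The higher share in the class therefore stood beside a different spread of its cells over the clusters. These shares of cells are given as a description, since the clusters were defined by genes that may differ between the groups.

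In NK-like cells (10658 cells), named for markers of cytotoxic innate lymphocytes, the control shares were 9.64% at the lowest, 10.3% at the median and 10.6% at the highest, and the anemic shares 10.6%, 11.0% and 14.6%. The groups met but did not overlap. The means were 10.23% ± 0.385 and 11.60% ± 1.53 (SD, n = 6 each; exact permutation p = 0.00216, adjusted 0.0184), and anemia mouse 2 alone gave the 14.6%. Without it the difference fell from 1.37 to 0.770 percentage points (adjusted exact p = 0.0736), and leaving out any control mouse also ended the call (adjusted exact p from 0.0859 to 0.202). In the cluster that held most of these cells (7) the means were 9.85% and 11.06% (exact permutation p = 0.00649), and in cluster 25 11.08% and 12.58% (exact p = 0.00217). The T marker Cd3g was among the leading genes of cluster 7, so the NK-like class may be mixed. Globin UMIs stood at 0.296% and 0.757% of this class in control and anemic mice. A denominator without globin genes was among the alternatives run, and no cause of the higher share was tested.

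**Figure D2:**
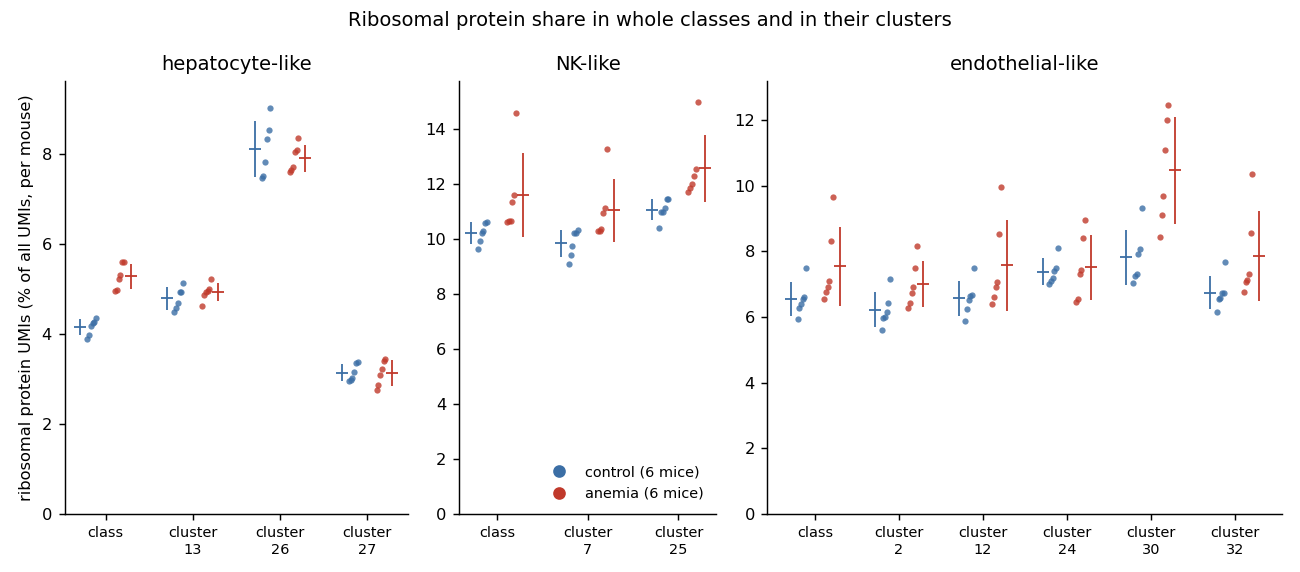
Member share (y axis, percent of all UMIs per mouse) in the whole class and in each of its clusters, for hepatocyte-like, NK-like and endothelial-like cells, with points for mice and bars for mean ± SD of 6 control (blue) and 6 anemic (red) mice. The hepatocyte-like groups separate only in the whole class (4.15% and 5.27%), while in NK-like cells both clusters lie higher in the anemic mice.

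Some classes moved by a similar amount without passing the adjusted test. Immature neutrophil-like cells had 2.70% ± 0.256 in control and 3.41% ± 0.682 in anemic mice (exact permutation p = 0.0217, adjusted 0.0920), with 4 anemic mice above all controls. Cholangiocyte-like cells, of the bile duct, went the other way, from 8.40% ± 0.806 to 7.00% ± 0.830 (exact permutation p = 0.0195, adjusted 0.0920), with 4 anemic mice below all controls. Endothelial-like cells had 6.55% ± 0.524 and 7.55% ± 1.21 (exact permutation p = 0.0844, adjusted 0.287); within them cluster 30, whose median cell held only 736.5 UMIs, had 7.82% and 10.47% (unadjusted exact p = 0.00649), and the unadjusted exact p in clusters 2, 12, 24 and 32 was 0.0541, 0.132, 0.768 and 0.0649. The erythroblast-like shares were 12.74% ± 1.61 and 12.97% ± 1.44 (SD, n = 6 each; exact permutation p = 0.805), and the reticulocyte-like shares 0.593% ± 0.112 and 0.535% ± 0.0631 (exact permutation p = 0.314).

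The change in NK-like cells was larger than that in T-like cells of the same mice, by 0.14 on the log2 scale of the share (exact permutation of the group labels, p = 0.00649, adjusted 0.0390 over 6 class pairs). Without globin, mitochondrial and liver secretory UMIs in the denominator it was 0.13 and missed the adjusted test (exact p = 0.0649). The NK-like class may hold T cells, since its main cluster had the T marker Cd3g among its leading genes. For hepatocyte-like against endothelial-like cells the difference was 0.15 (adjusted exact p = 0.273), and for erythroblast-like against reticulocyte-like cells 0.16 (adjusted exact p = 0.380).

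Single members were then tested in each class with edgeR's quasi-likelihood test on UMIs summed per mouse, scaled by TMM factors, with Benjamini-Hochberg adjustment over all genes tested in the class. A member is said to be called where its adjusted p was under 0.05, and levels are in CPM, UMIs scaled to a common library size of the class with TMM factors. Of the members, 80 had enough UMIs for a test in every class, Rpl10l (3 UMIs in all cells) in none, and 76 were called in at least 1 class. A member that passed the filter only in some classes is counted only there.

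Hepatocyte-like cells held most of the calls. Of 83 members tested, 72 were called higher and 0 lower in anemic mice, beside 21.4% called higher and 25.2% lower among all 10981 genes tested. The median log2 fold change was 0.43 over the members and −0.08 over all genes, and 81 members had a positive value. With cells of at most 10% mitochondrial UMIs 43 were called, a count given without the share of all genes called under that limit. Endothelial-like cells followed with 37 of 85 members called higher (8.42% of all genes) and 1 lower (9.91%), and reticulocyte-like cells with 19 of 81 called higher (6.73%) and 0 lower (2.12%), with medians of 0.33 and 0.37. The endothelial-like count of 38 moved to between 15 and 22 without control mouse 1, 2, 4, 5 or 6 or anemia mouse 2 or 3, and to 56 without control mouse 3. With plain library sizes in place of TMM scaling it was 11 (9 higher, 2 lower; 22.2% of all genes called). The reticulocyte-like count moved to 12 and 11 without control mice 1 and 5, and with genes of a mean of at least 50 UMIs it became 4 higher and 7 lower. The counts of both classes without single mice and at 50 UMIs stand without the share of all genes called. They describe the processing and are not results about the members. With plain library sizes 4 members were called in reticulocyte-like cells, all of them lower (17% of all genes called). Elsewhere single members were called: Rplp1 higher in macrophage-like cells (1.38% of all genes called higher), Rps12 higher in immature neutrophil-like cells (0.0821%) and Rps27a lower in pre-B-like cells (1.26% called lower). The shares of all genes called in either direction in the other classes were 1.84% in B-like, 1.18% in monocyte-like, 0.872% in plasmacytoid dendritic-like, 0.733% in basophil or mast-like, 0.703% in erythroblast-like, 0.446% in conventional dendritic-like, 0.382% in NK-like, 0.197% in mature neutrophil-like, 0.183% in T-like, 0.0763% in granulocyte progenitor-like and 0.0204% in cholangiocyte-like cells. In these 11 classes edgeR called no member. Those at an unadjusted edgeR p under 0.05 ran from 2 of 83 in plasmacytoid dendritic-like cells (1070 of all 9515 genes) to 40 of 82 in cholangiocyte-like cells (960 of all 9796 genes). DESeq2 called 0 to 7 and limma-voom 0 to 47 members a class. The 47 were in erythroblast-like cells, all of them higher (6.68% of all genes called by limma-voom).

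In NK-like cells, where the summed share was higher, 0 of 84 members were called by edgeR (0.382% of all genes called). Of these, 82 had a positive log2 fold change, with a median of 0.23 beside 0.02 over all genes. An unadjusted edgeR p under 0.05 stood for 33 of them (1305 of all 11510 genes), and 15 had groups that did not overlap (1.48% of all genes). DESeq2 called 3 (0.877% of all genes) and limma-voom 17 (1.64%) of the members. The signs of the members are parts of the summed share and no separate support for it. In cholangiocyte-like cells, where the share lay lower, edgeR also called 0 of 82 members, with a negative value for 81 and a median of −0.24. Of the 82, 40 had an unadjusted p under 0.05 (960 of all 9796 genes).

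**Figure D3:**
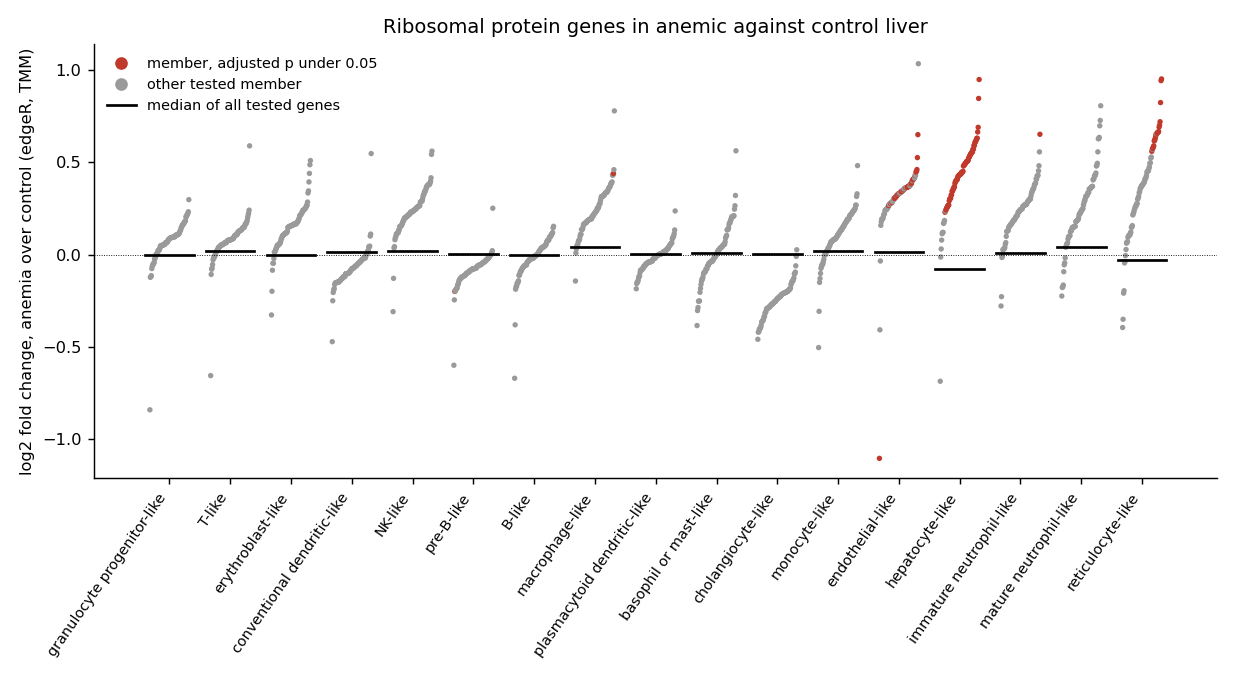
Log2 fold change of each tested member, anemia over control (y axis, edgeR with TMM), in the 17 classes (x axis), members sorted by value within a class, red where the adjusted p was under 0.05 and grey otherwise, with a black line at the median of all genes tested. The 72 red points of hepatocyte-like cells lie above that line, and the red points below it are Rpl3l in endothelial-like and Rps27a in pre-B-like cells.

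Rps2, a small-subunit protein near the mRNA entry channel, was the member with the largest change in hepatocyte-like cells. Its control levels were 597 CPM at the lowest, 616 at the median and 742 at the highest, and its anemic levels 1162, 1232 and 1351. Each anemic mouse stood well above each control mouse, with means of 649 ± 64.4 and 1253 ± 74.0 CPM (SD, n = 6 each; log2 fold change 0.95, SE 0.083, edgeR adjusted p = 2.93e-07). Rpl7a, a large-subunit protein, had 311, 337 and 367 CPM in control and 511, 623 and 655 CPM in anemic mice (log2 fold change 0.85, SE 0.082, edgeR adjusted p = 8.25e-07). For Rps20, at 4:3831334-3835665, the corresponding levels were 717, 805 and 862 CPM and 1147, 1231 and 1607 CPM (log2 fold change 0.69, SE 0.091, edgeR adjusted p = 1.45e-05). The groups did not overlap for any of these 3 members, as for 69 of the 83 in all (23.5% of all genes).

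Within the hepatocyte-like clusters far fewer members passed. Cluster 13 had 6 called higher (4.83% of all its genes), namely Rpl19, Rpl22l1, Rpl7a, Rps12, Rps2 and Rps27l, cluster 26 had Rps2 alone (2.94%) and cluster 27 had 0 by edgeR (2.94% of all its genes called higher, 4 members with an unadjusted p under 0.05). Rps2 stood at 914 ± 67.8 and 1181 ± 58.1 CPM in cluster 13 (log2 fold change 0.37, edgeR adjusted p = 0.0047) and at 1695 ± 102 and 2240 ± 105 CPM in cluster 26 (0.40, edgeR adjusted p = 0.00456). Rpl7a went from 444 to 588 CPM in cluster 13 (0.41, edgeR adjusted p = 0.00855) but had 212 and 210 CPM in cluster 27. The change of Rps2 was thus also present inside 2 of the clusters, at less than its size in the whole class.

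In hepatocyte-like cells 11 tested members were not called, among them Rpl35a, Rpl37a, Rplp0, Rplp1, Rps18, Rps19, Rps25, Rps27 and Rps9. Rps19, the gene most often mutated in Diamond-Blackfan anemia, had 203, 228 and 247 CPM in control and 209, 229 and 254 CPM in anemic mice, almost the same 3 values (log2 fold change 0.03, edgeR adjusted p = 0.778). Rps27, a zinc-finger protein of the small subunit, had 169, 186 and 198 CPM against 150, 176 and 225 CPM (−0.01, edgeR adjusted p = 0.926).

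The P-stalk, which recruits elongation factors to the large subunit, is made of Rplp0 and the acidic proteins Rplp1 and Rplp2, with Rpl12 at its base. In hepatocyte-like cells 2 of these 4 were called higher (72 of 83 members tested and 21.4% of all genes): Rplp2 (562 to 836 CPM, log2 fold change 0.57) and Rpl12 (204 to 243 CPM, 0.25). Rplp0 had 269 and 317 CPM (edgeR adjusted p = 0.0521) and Rplp1 418 and 452 CPM (edgeR adjusted p = 0.273). In endothelial-like cells (8.42% of all genes called higher) Rpl12, Rplp1 and Rplp2 were called higher, at 198 and 271, 622 and 748, and 705 and 908 CPM, and in reticulocyte-like cells (6.73%) Rplp0 (71.9 to 117 CPM) and Rplp2 (73.1 to 118 CPM). The reticulocyte-like calls rest on TMM scaling, without which no member was called higher there. Macrophage-like cells, which include the resident phagocytes of the liver, had Rplp1 at 972 CPM at the lowest, 1072 at the median and 1133 at the highest in control mice and 1197, 1387 and 1750 in anemic mice. The groups were apart (log2 fold change 0.44, SE 0.10, edgeR adjusted p = 0.0334), although the call was lost without any single control mouse, without anemia mouse 3 or 5, with genes of at least 1 UMI in all and with a sex term (adjusted p = 0.050). Xist was above the Y-linked transcripts in 4 of 6 control and 2 of 6 anemic mice.

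Like-named copies of members were described beside their partners, and Rps19bp1, which is no copy, beside Rps19, whose protein it binds. In hepatocyte-like cells Rps27l was called higher (322 to 457 CPM, log2 fold change 0.51), as were Rpl22l1 (202 to 314, 0.63), Rpl36al (416 to 603, 0.53), Rpl7l1 (54.6 to 67.8, 0.31) and Rps19bp1 (35.9 to 48.5, 0.44), which makes 5 of 6 tested in this list. Of their 9 partners 7 were called higher there, Rpl10, Rpl22, Rpl3, Rpl36a, Rpl39, Rpl7 and Rps4x, with Rps19 and Rps27 the others. These counts stood beside 72 of 83 members tested and 21.4% of all genes. Rpl22 rose from 332 to 488 CPM and Rpl36a from 266 to 363 CPM, while Rps27 and Rps19 did not pass beside called Rps27l and Rps19bp1. In endothelial-like cells Rpl3l, at 17:24727820-24736143 and known best from skeletal and heart muscle, was the only member called lower. Its levels were 2.50, 3.62 and 4.94 CPM in control and 0.772, 1.52 and 2.59 CPM in anemic mice, so the groups overlapped by a single value each (log2 fold change −1.10, edgeR adjusted p = 0.00803). Within the endothelial-like clusters it was called in cluster 12 (3.25 and 1.29 CPM, edgeR adjusted p = 0.0163) and not in cluster 2 (3.63 and 2.70 CPM, adjusted p = 0.292). Rpl39l (1119 UMIs in all cells), Rpl10l, Rpl3l, Rps27rt and Rps19bp1 were the 5 members whose median share did not reach 0.1% of member UMIs in any class.

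In endothelial-like cells, which line vessels, Rps2 again had the largest called increase. Its levels were 882, 952 and 1124 CPM in control and 1136, 1321 and 2298 CPM in anemic mice, the 2298 being that of anemia mouse 2 (means 965 ± 86.5 and 1515 ± 454, log2 fold change 0.65, SE 0.16, edgeR adjusted p = 0.0106). Rpl27 had 386, 403 and 469 CPM and 469, 515 and 826 CPM (0.46, edgeR adjusted p = 0.0211). Rps6, the target of the S6 kinases, had 317, 345 and 399 CPM and 404, 467 and 596 CPM (0.45, edgeR adjusted p = 0.00509). The 3 were named from called members whose groups did not overlap, which held for 5 of the 85 members tested (8.33% of all genes). All 3 remained called without anemia mouse 2, when 19 members were called, a count given without the share of all genes. The cells of this class were spread differently over its clusters: cluster 2 held 58.1% of control and 35.3% of anemic cells of the class, and cluster 12 held 15.5% and 30.7%. Within clusters, Rps2 was called in 2 (933 and 1443 CPM) and 12 (913 and 1422 CPM) and not in 24 (1295 and 1587 CPM, edgeR adjusted p = 0.343). Cluster 30 had 51 members called higher (6.88% of its genes), cluster 2 had 34 (7%), cluster 12 had 23 (7.34%) and cluster 24 had 0 by edgeR (0.807%).

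Reticulocyte-like cells lay far below the other classes in member UMIs, and the members' levels are small beside globin, which took 84.3% of UMIs in control and 86.6% in anemic mice. Control mouse 3 had 1187 member UMIs in this class and the other mice 4319 to 39328. Rpl41, which encodes a very short and basic large-subunit protein, had 125, 203 and 224 CPM in control and 311, 384 and 414 CPM in anemic mice (log2 fold change 0.95, SE 0.16, edgeR adjusted p = 5.74e-04). Rpl10, which joins the large subunit late in its assembly, had 23.1, 36.2 and 43.4 CPM and 57.6, 65.9 and 81.0 CPM (0.94, SE 0.18, edgeR adjusted p = 0.00154). Rps3, at the mRNA entry of the small subunit, had 9.89, 46.4 and 51.4 CPM and 58.1, 77.1 and 83.2 CPM (0.82, SE 0.22, edgeR adjusted p = 0.0186), with control mouse 3 at the 9.89. The 3 were named from called members whose groups did not overlap. Of the 81 members tested, 17 lay higher and 1 lower in the anemic mice without overlap (6.33% of all genes). These calls rest on the TMM scaling: with plain library sizes 4 members were called (17% of all genes), all 4 of them lower, and the median log2 fold change of all genes moved by −0.50. Rps3 was also not called with genes of a mean of at least 50 UMIs. Cluster 6 held 16.3% of control and 34.3% of anemic cells of the class, and cluster 8 held 36.6% and 22.0%. In clusters 3, 6 and 8, 7.58%, 5.98% and 7.35% of all genes were called in either direction. Rpl41 was called higher in each of them, Rpl10 in clusters 3 and 8, and Rps3 in none.

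Rps12 in immature neutrophil-like cells had 169, 188 and 213 CPM in control and 237, 278 and 430 CPM in anemic mice, without overlap (log2 fold change 0.65, SE 0.13, edgeR adjusted p = 0.0232). The call was lost without control mouse 2, 4, 5 or 6, and Rps12 was not called within clusters 16 and 42 of this class. Rps27a, which is made as a fusion to ubiquitin, had 3117, 3303 and 3420 CPM in pre-B-like cells of control mice and 2728, 2836 and 2998 CPM in those of anemic mice. It was the only called decrease at more than a few CPM, without overlap (−0.20, SE 0.051, edgeR adjusted p = 0.0472), and it was also called in the pre-B-like cluster 1 (1971 and 1641 CPM, −0.26, edgeR adjusted p = 0.0120). Rps27a was not called in the pre-B-like clusters 5 and 29. The call in the whole class was lost without any of control mice 1 to 5 or of anemia mice 1 to 5, with a sex term (adjusted p = 0.092), with plain library sizes, with genes of at least 1 UMI in all, with the replicate number as a block, at a mitochondrial share of at most 10% and without the deepest 10% of cells, in all in 16 of 23 alternatives.

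**Figure D4:**
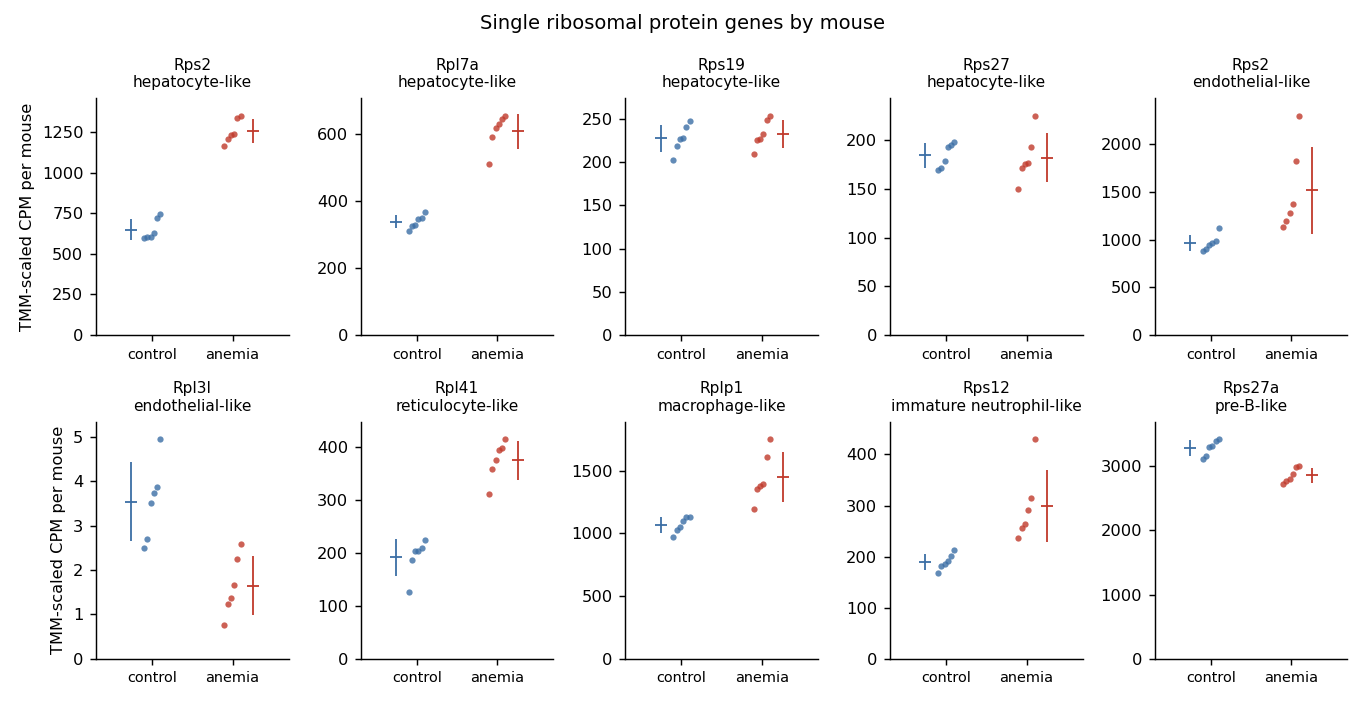
TMM-scaled CPM per mouse (y axis, from 0) of 10 members in the class named above each panel, with points for mice and bars for mean ± SD of 6 control (blue) and 6 anemic (red) mice. Rps2 and Rpl7a in hepatocyte-like cells separate fully, Rps19 and Rps27 in the same cells do not (227 and 233, 184 and 182 CPM), and Rpl3l in endothelial-like cells and Rps27a in pre-B-like cells are lower in the anemic mice.

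Of the 19 Diamond-Blackfan anemia genes on the list, all members, 15 were called higher in hepatocyte-like cells (72 of all 83 members tested), 5 in endothelial-like cells (37 of 85) and 5 in reticulocyte-like cells (19 of 81), and 0 were called lower in any of the 3. The reticulocyte-like calls rest on TMM scaling: with plain library sizes every member called there was lower. Among all genes 21.4%, 8.42% and 6.73% were called higher in these classes. Among those of hepatocyte-like cells were Rpl5 (317 to 450 CPM, log2 fold change 0.51) and Rpl11 (621 to 821, 0.40), which bind free 5S ribosomal RNA, and Rps26 (616 to 871, 0.50) and Rps7 (630 to 999, 0.67). The list's median there, 0.40, stood beside 0.43 for all members.

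To find members that moved apart from the rest, the same fit was made with the total of the members as library size, so that a level is a CPM of the member UMIs alone (member CPM). In hepatocyte-like cells 5 members were called higher (5.13% of all genes on this scale) and 18 lower (52.3%). A scale set by the members puts most other genes lower, so these shares are given as background only. Rps2 rose from 16180 ± 1286 to 22810 ± 1004 member CPM (log2 fold change 0.50, edgeR adjusted p = 3.24e-05), and Rpl7a (0.39), Rps20 (0.23), Rps7 (0.21) and Rps3a1 (0.18) rose as well. Rps27 fell from 4603 ± 313 to 3317 ± 448 (−0.47, edgeR adjusted p = 5.35e-04), Rps19 from 5674 to 4240 (−0.42), Rpl37a from 12870 to 9935 (−0.37) and Rplp1 from 10410 to 8231 (−0.34). Rps27rt, an intronless copy of Rps27, fell from 153 to 67.8 (−1.14, edgeR adjusted p = 0.00343). In the class as a whole Rps19 and Rps27, whose levels in CPM hardly differed, were a smaller part of the member UMIs of the anemic mice. Within its clusters the calls on this scale were Rpl7a higher and Rpl35a lower in cluster 13 (8.64% of all its genes called in either direction), Rps2 higher in cluster 26 (4.17%) and 0 by edgeR in cluster 27 (3.81%, 2 members with an unadjusted p under 0.05), with neither Rps19 nor Rps27 called in any.

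In endothelial-like cells the same 3 small-subunit members stood out on this scale, beside Rpl3l. Rps2 rose from 15330 to 18900 member CPM (log2 fold change 0.30; 2.33% of all genes called higher and 24.1% lower), while Rps27 fell from 7301 to 5798 (−0.33, edgeR adjusted p = 0.0408), Rps27rt from 225 to 140 (−0.67, adjusted p = 0.0232) and Rpl3l from 56.6 to 22.0 (−1.37, adjusted p = 0.00425). The call of Rps27 was lost without anemia mouse 2, 3 or 4 and without 5 of the control mice. Reticulocyte-like cells had Rpl10 (6961 to 10130, 0.51) and Rpl41 (39810 to 56550, 0.50) called higher (2.34% of all genes) and Rps27a (29410 to 21630, −0.44) called lower (10.9%). The call of Rpl10 on this scale was lost without control mouse 1, 5 or 6 and without anemia mouse 2, 3 or 4. In the other 14 classes edgeR called no member on this scale.

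Rps27 also varied between single mice. Over the 17 classes its share of member UMIs, against the mean of the other mice of its group, was lower in 17 of 17 classes in anemia mouse 3 (median log2 ratio −0.35) and in 16 of 17 in anemia mouse 2 (−0.28), and higher in 17 of 17 in anemia mouse 5 (0.26). Rps29 was lower in 16 of 17 classes in anemia mouse 3 (−0.21), and Rps12, Rps25 and Rps7 were lower in 16, 16 and 17 classes in control mouse 3 (−0.20, −0.19 and −0.17). The classes of a mouse come from 1 library, so these are deviations of libraries.

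Reads that match more than 1 gene equally well can be lost or misplaced for members with near-identical copies. Of the 91-base words in the last 400 bases of the transcripts, where such libraries read, 89.8% of those of Rps27rt also occur in Rps27 and 42.3% of those of Rps27 in Rps27rt, 45.8% of those of Rpl10 in Rpl10-ps3 and 24.5% of those of Rpl41 in Gm10076. For Rpl35 (with Gm2000), Rpl36a (Rpl36a-ps1), Rps18 (Gm11361 and Gm10260) and Rplp2 (Wdr89) the shares were 70.3%, 63.6%, 47.4% and 24.2%. The levels of these members are uncertain to that extent, and with them the share of Rpl36al in its pair with Rpl36a. The shares were 0 for Rps2, Rpl7a, Rps20, Rps12, Rps6 and Rps19.

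The composition of the member UMIs, as distinct from their total, was also compared between cell classes. Among the members with most UMIs over all cells, Rps24 gave 3.99% ± 0.149 (SD, n = 12) of member UMIs, Rps27a 3.22% ± 0.135, Rpl37 3.08% ± 0.111 and Rps3a1 2.74% ± 0.124. These are captured transcripts, and capture differs between genes, so the comparison made here is of the same member between classes. For each member the log2 ratio of its share in a class to the mean share in the other classes was taken per mouse, and of the 10 members farthest from 0 with the same sign in all 12 mice, 9 are described.

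Hepatocyte-like cells held 3 of them, and all 3 are like-named copies. Rps27l gave 0.814% of member UMIs there (range 0.722% to 0.954% over 12 mice), a log2 ratio of 1.98 (1.74 to 2.20). Rpl36al gave 1.05% (0.926% to 1.19%, log2 ratio 1.40) and Rpl7l1 0.125% (log2 ratio 1.39). Set against their partners in the same cells, Rps27l took 67.4% of the UMIs of Rps27l and Rps27 together in hepatocyte-like cells (60.6% to 74.7% over 12 mice) and 14.1% in T-like, 17.6% in B-like and 19.4% in NK-like cells. The share of Rpl36al with Rpl36a was 61.5% in hepatocyte-like (57.7% to 67.1%) and 29.5% in endothelial-like cells (28.4% to 31.6%). Rpl22l1 took 38.6% with Rpl22 in hepatocyte-like cells (36.3% to 41.7%) and 13.7% in conventional dendritic-like cells (11.1% to 14.9%). The ranges over mice of these classes lay apart, but hepatocyte-like cells overlapped with other classes: Rps27l took 44.7% to 81.8% in reticulocyte-like, Rpl36al 53.2% to 63.2% in monocyte-like and Rpl22l1 25.5% to 42.3% in immature neutrophil-like cells. Between the groups, Rps27l took 63.6% ± 1.99 of its pair in hepatocyte-like cells of control mice and 71.6% ± 2.46 in those of anemic mice, and 42.9% ± 5.46 and 54.0% ± 4.16 in erythroblast-like cells (SD, n = 6 each). Rpl22l1 took 24.4% ± 2.17 and 32.8% ± 2.09 of its pair in erythroblast-like cells. These group values were noticed after they were seen and were not tested. Rpl3l, by contrast, was at a median of 0 of the pair with Rpl3 in hepatocyte-like cells (3 UMIs) and at 19.0% in mature neutrophil-like cells, where it rests on 198 UMIs.

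Mature neutrophil-like cells, which hold few member UMIs, had 5. Rps27a gave 10.3% of their member UMIs (5.80% to 12.0%, log2 ratio 1.57), Rps27 1.06% (1.35) and Rps9 1.69% (1.22), while Rpl10a with 0.330% (−1.33) and Rpsa with 0.912% (−1.22) stood low. Rpl31 gave 1.29% in plasmacytoid dendritic-like cells (1.22% to 1.36%, log2 ratio 1.61). Only members with at least 0.1% of member UMIs in some class and the same sign in 12 mice were ranked. Of these, Rplp1 was the only one over 2-fold higher in macrophage-like cells than in the other classes.

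**Figure D5:**
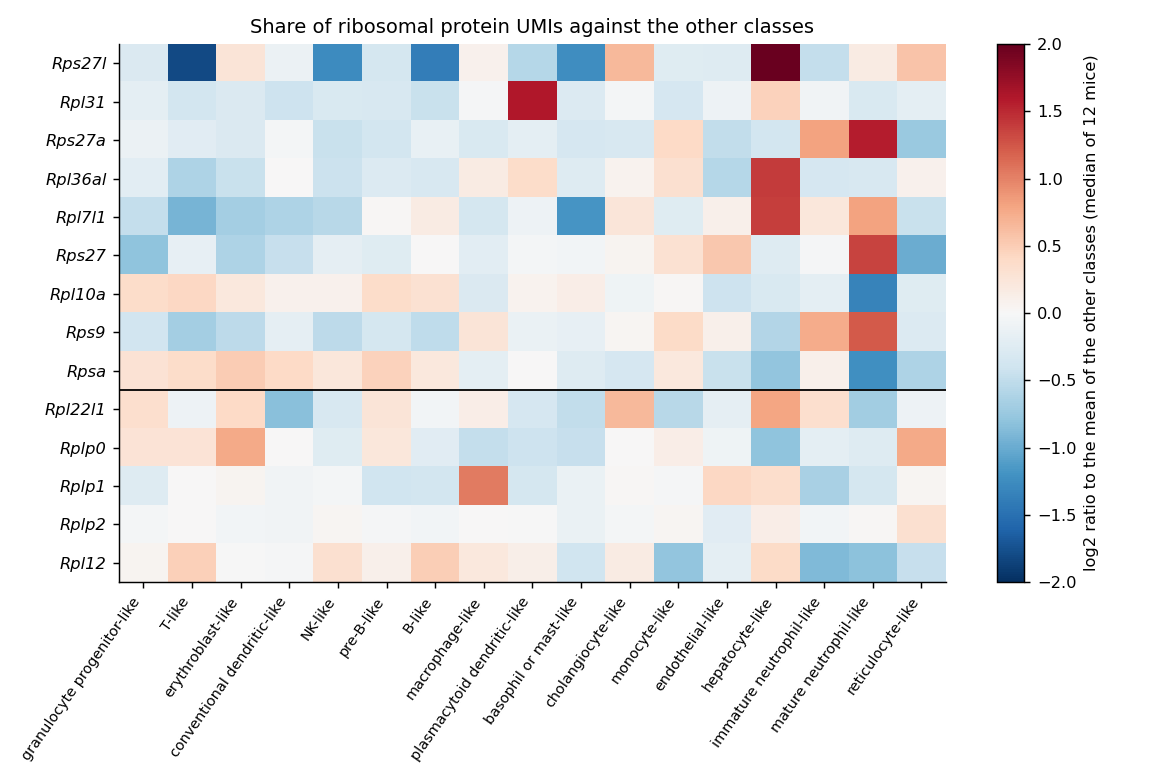
Log2 ratio of a member's share of member UMIs in a class (x axis) to its mean share in the other classes, median of 12 mice, as colour from −2 (blue) to 2 (red), for 9 of the 10 members farthest from 0 (above the line) and other like-named copies and P-stalk members (below). The reddest cells are Rps27l, Rpl36al and Rpl7l1 in hepatocyte-like, Rpl31 in plasmacytoid dendritic-like and Rps27a in mature neutrophil-like cells.

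Of ribosomal protein genes outside the symbol rule, Fau, which makes the small-subunit protein eS30, was called higher in hepatocyte-like cells (1215 to 1899 CPM, log2 fold change 0.64), and Rack1 was not (239 and 264 CPM).

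Other genes of the translation machinery were counted by list, beside the shares of all genes called higher and lower of 21.4% and 25.2% in hepatocyte-like, 8.42% and 9.91% in endothelial-like and 6.73% and 2.12% in reticulocyte-like cells. Of 17 translation factors with TOP mRNAs, 13 were called higher and 0 lower in hepatocyte-like cells (median 0.34), among them Eef1a1, the carrier of aminoacyl-tRNA (1772 to 2103 CPM), while Tpt1 had 1036 and 1066 CPM. Endothelial-like cells had 3 and reticulocyte-like cells 4 of the 17 called higher, Eef1d in both. Of 20 ribosome assembly factors, nucleolar proteins such as Fbl and Nop58, 6 were called higher and 1 lower in hepatocyte-like cells (median 0.11), and 0 higher and 4 lower in endothelial-like cells. Of 9 RNA polymerase I genes tested in hepatocyte-like cells 3 were called higher and 1 lower. Of 13 regulators of TOP translation and S6 kinases, 1 was called higher and 8 lower in hepatocyte-like cells (median −0.42). Eif4ebp1, an inhibitor of cap-dependent translation, rose from 43.3 to 80.3 CPM, while Larp1, which binds TOP motifs, fell from 83.9 to 63.1 CPM and Myc from 7.18 to 2.75 CPM. In endothelial-like cells 3 of these 13 were called higher and 0 lower (median 0.01): Eif4ebp1 (69.6 to 112 CPM), Myc (33.2 to 42.4 CPM) and the S6 kinase Rps6ka3 (112 to 137 CPM). In NK-like cells edgeR called no gene of any of these lists, and the assembly factors had a median log2 fold change of 0.46.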

How the data were processed

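Livers of 12 mice (6 control, 6 PIA) were each profiled with 1 droplet 3′ library. The authors deposited filtered matrices of raw UMI counts per gene and barcode made with Cell Ranger, whose version 7.0.0 stands in the file headers, on mm10 per the labels, with Seurat also named. The labels give the 3′ v2 kit and the methods v3.1, and whether intronic reads were counted is not given in the sources used here. Cell Ranger keeps reads that map to a single gene, which can lower counts of members with near-identical copies. Dissociation was enzymatic with a slow spin, so cell recovery may differ between types, and fewer cells of a type cannot be told apart from less recovery.

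Cells of 500 to 50000 UMIs with at most 50% mitochondrial UMIs were kept, and counts per library ranged from 45751640 to 74344118. Doublets were not called (leaving out the 10% of cells with most UMIs per mouse and class was an alternative). Cells were clustered without ribosomal protein genes (2000 variable genes, 20 components, 20 neighbours, Leiden resolution 2). Clusters were named from marker lists, with the least score lowered to 1.3 after the clusters were seen. Lists of genes that speak against a name were likewise set after the clusters were seen. UMIs were summed per mouse and class.

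Shares were compared by exact permutation over mice (SciPy 1.17.1). Genes that averaged 5 or more UMIs over the mice entered edgeR 4.0.16 (glmQLFit, glmQLFTest, TMM; R 4.3.3) with Benjamini-Hochberg adjustment over all genes of the class. DESeq2 1.42.0 and limma 3.58.1 (voom over all classes) were alternatives. Ribosomal protein genes were kept, which the study's own model left out. On simulated counts the edgeR step recovered 174 of 200 changed genes among 11510 in NK-like and 167 of 200 among 10981 in hepatocyte-like cells, and 96 and 97 of the 100 changed by a log2 fold of 2, with 6 and 12 unchanged genes called.

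The members, gene lists and tests were chosen with earlier results of these data known. Members named are the like-named copies and their partners, the P-stalk, the 5 with most UMIs, the 10 farthest from the other classes in composition (at least 0.1% of member UMIs in a class, same sign in 12 mice), per class and direction up to 3 called members of at least 10 CPM without overlap, and up to 3 called relative to the member total. Of other genes, up to 3 per list called in the most classes are named. Members named as not called or within clusters, and Rpl5, Rpl11, Rps26, Larp1, Myc and Eif4ebp1, were chosen after their values were seen. The alternatives within clusters and without shared barcodes were chosen after seeing the data. Results of some genes that these rules name are not reported here. Promoter windows came from RefSeq (GRCm38.p6) and coordinates from GENCODE (GRCm38).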

Additional observations from a re-analysis of the deposited data

Results flagged for a closer look

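The member share of single mice stood apart in 3 of 60 groups of 6 mice examined (36 of shares, 24 of named members), where chance alone flags about 1 group in 20. In NK-like cells anemia mouse 2 had 14.6% of UMIs from members and the nearest anemic mouse 11.6%. In monocyte-like cells the same mouse had 6.44%, the nearest being at 7.50%. Its library also gave 3988 of the monocyte-like cells, more than any other. In mature neutrophil-like cells control mouse 3 had 2.00% (1.995% before rounding) and the nearest control mouse 1.64%.

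The anemia effect on the log2 member share differed between NK-like and T-like cells by 0.142 (exact permutation of the group labels, adjusted p = 0.0390 over 6 pairs), and without globin, mitochondrial and liver secretory UMIs in the denominator by 0.127 (adjusted exact p = 0.0649). Anemia mouse 2 had the highest share of the anemic mice in both classes, and no cause was tested.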

How the results depend on the processing

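Of 1187 comparisons of a result with an alternative (575 of them without the fits that leave out a mouse), 1008 (464) kept direction and side of the threshold, or a count within 1.5-fold. In hepatocyte-like cells the higher share was kept without each mouse (1.06 to 1.19 percentage points) and fell to 0.561 at a mitochondrial share of at most 10% (adjusted exact p = 0.0859); within clusters 13, 26 and 27 it was 0.136, −0.210 and −0.00798. In NK-like cells the adjusted exact test was missed with cells of at least 1000 UMIs (1.36), at resolution 1 (1.23) and without shared barcodes (1.33). Under the replicate block (sign flips over 6 pairs, smallest exact p 0.03125) the differences of 1.37 in NK-like and 1.13 in hepatocyte-like cells had adjusted p = 0.177. Mice with the same replicate number deviated together in shares with correlations of −0.00831, 0.0862, 0.347, 0.162, 0.653 and 0.492, not all above 0.1, and over genes all 6 were above 0.1 only in conventional dendritic-like of the 17 classes, though those of replicate 4 reached 0.713 (NK-like). No label ties the numbers to litters or days, so they were not taken as pairs; the block gave 48 members called in endothelial-like and 21 in reticulocyte-like cells.

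Small differences in share changed sign: in B-like cells without globin (0.0137), without globin, mitochondrial and liver secretory UMIs (0.00998), as mean over cells (0.300), without the deepest 10% of cells (0.378), with a sex term (0.154), with ribosomal protein genes of other names in place of the copies (0.0294) and in cluster 0 (0.328); in plasmacytoid dendritic-like cells without globin (0.0186) and with a sex term (0.0425); in basophil or mast-like cells without globin (0.0257); in reticulocyte-like cells without globin (0.231), without the 3 kinds (0.140), at 1000 UMIs (0.0411) and in clusters 3 (0.0207) and 6 (0.00428); in erythroblast-like cells at 1000 UMIs (−0.486); in mature neutrophil-like cells without the deepest cells (−0.0529) and in cluster 17 (−0.0167). The immature neutrophil-like difference passed the adjusted exact test as mean over cells (0.565) and without the deepest cells (0.748), and was 0.415 in cluster 16. The endothelial-like one was 2.65 in cluster 30. With the 3 kinds out of the denominator, the steps between neighbours were 0.747 for granulocyte progenitor-like over T-like (adjusted exact p = 0.0557), −0.726 for T-like over erythroblast-like, 0.989 for NK-like over pre-B-like and −2.74 for mature neutrophil-like over reticulocyte-like cells, and the NK-like minus T-like effect on the log2 share was 0.127.

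Counts of members called moved as follows. Here and below they stand without the share of all genes called, so they describe the processing and are not results about the members. That share moved with the method as well: in erythroblast-like cells it was 0.703% by edgeR and 6.68% by limma-voom. DESeq2 called 11 in macrophage-like, 7 in monocyte-like, 1 each in granulocyte progenitor-like, B-like, conventional dendritic-like and cholangiocyte-like, 3 each in pre-B-like and NK-like, 2 in erythroblast-like and 60 in endothelial-like cells; limma-voom called 29 in macrophage-like, 7 in monocyte-like, 1 each in mature neutrophil-like and granulocyte progenitor-like, 5 in pre-B-like, 17 in NK-like, 47 in erythroblast-like, 52 in reticulocyte-like and 78 in endothelial-like cells. Without TMM factors 4 were called in reticulocyte-like (all lower), 11 in endothelial-like and 0 in pre-B-like cells, and in hepatocyte-like cells 62 were called higher and 1 lower. The median of all genes then moved by −0.50 in reticulocyte-like, −0.20 in hepatocyte-like, −0.11 in erythroblast-like and 0.11 in immature neutrophil-like cells. At 1 UMI in all, 0 were called in macrophage-like, 4 in mature neutrophil-like, 6 in immature neutrophil-like, 1 in B-like, 2 in erythroblast-like, 33 in reticulocyte-like and 24 in endothelial-like cells; at a mean of 50 UMIs, 11 in reticulocyte-like cells (4 higher, 7 lower). The sex term left 0 in macrophage-like and pre-B-like cells, the replicate block 1 in B-like and 0 in pre-B-like cells, and the mitochondrial limit of 10% 43 in hepatocyte-like and 0 in pre-B-like cells. Without the deepest cells 1 was called in monocyte-like, 11 in immature neutrophil-like, 0 in pre-B-like and 1 in erythroblast-like cells. Within clusters the counts were 6, 1 and 0 (hepatocyte-like 13, 26, 27), 25, 0 and 13 (endothelial-like 12, 24, 32), 5, 4 and 3 (reticulocyte-like 3, 6, 8), 1 (NK-like 25), 0 (macrophage-like 9), 0 and 0 (immature neutrophil-like 16, 42) and 0 and 0 (pre-B-like 5, 29).

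Relative to the member total, DESeq2 called 36 in hepatocyte-like (13 higher, 23 lower), 8 in reticulocyte-like, 2 each in monocyte-like, B-like and erythroblast-like, and 1 each in macrophage-like, immature neutrophil-like and granulocyte progenitor-like cells; the replicate block 12 in hepatocyte-like (2 higher, 10 lower) and 1 in monocyte-like cells; clusters 2, 1 and 0 (hepatocyte-like 13, 26, 27), 2, 0 and 0 (reticulocyte-like 3, 6, 8), 0, 2 and 0 (endothelial-like 24, 30, 32) and 1 (pre-B-like 1).

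Leaving out each mouse gave share differences of −0.246 to 0.150 in B-like, 0.770 to 1.56 in NK-like, −0.0781 to 0.547 in T-like, −0.410 to 0.129 in basophil or mast-like, −0.250 to 0.633 in erythroblast-like, 0.473 to 0.861 in immature neutrophil-like and −0.168 to 0.0923 in plasmacytoid dendritic-like cells. Counts ranged from 15 to 56 in endothelial-like (16, 22, 56, 16, 15 and 17 without control mice 1 to 6; 27, 19, 18, 32, 43 and 54 without anemia mice 1 to 6), 11 to 23 in reticulocyte-like (12 and 11 without control mice 1 and 5), 72 to 74 in hepatocyte-like, 0 to 3 in macrophage-like, and 0 to 1 in B-like, immature neutrophil-like and pre-B-like cells; relative to the member total from 17 to 23 in hepatocyte-like, 1 to 4 in endothelial-like, 2 to 7 in reticulocyte-like, and 0 to 1 in B-like and monocyte-like cells. The cause of these changes was not tested. Depth limits the members of few UMIs.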
